A study of Mus musculus with 24 samples.

Results

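The proteasome genes described here are the 50 of 24091 genes in the count table whose symbol begins with Psma, Psmb, Psmc, Psmd, Psme, Psmf or Psmg. They were read in bulk RNA of LSK cells, the Lin-Sca-1+c-Kit+ fraction of mouse bone marrow that holds the stem and early progenitor cells, from 4 groups of 6 mice with 3 females and 3 males each. WT mice carried intact miR-142 and no BCR-ABL, and miR-142 KO mice lacked miR-142 in every cell (Mir142-/-). CP CML mice, a model of the chronic phase of chronic myeloid leukaemia, carried intact miR-142 and the SCLtTA/BCR-ABL transgene, and BC CML mice, the model of blast crisis, carried the same transgene on the Mir142-/- background. All mice were on the C57BL/6 background. BCR-ABL is the fusion kinase that drives this leukaemia, and in these mice it is expressed through the SCL promoter, which is active in stem and progenitor cells, once tetracycline is withdrawn. The labels give no age for the mice. Each library carries its own number in the labels and was counted as 1 mouse, but the methods of the study give another number of mice per group for this experiment, and which is right could not be settled here.

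The proteasome is the protease that breaks down most ubiquitin-tagged proteins of the cell. Its barrel-shaped core, the 20S particle, is built of stacked rings of alpha subunits (the Psma genes), which form the gate, and beta subunits (the Psmb genes), of which Psmb5, Psmb6 and Psmb7 carry the active sites. The 19S cap recognises and unfolds substrates with a base that holds a ring of ATPases (the Psmc genes) and a lid that removes ubiquitin (most of the Psmd genes). Cells of the blood system also make the immunoproteasome, in which the interferon-inducible subunits Psmb8, Psmb9 and Psmb10 take the places of Psmb5, Psmb6 and Psmb7 and shift the cut towards peptides that fit MHC class I. Further members are the caps of the PA28 and PA200 families (the Psme genes), the inhibitor Psmf1 and the chaperones that assist assembly of the core (the Psmg genes) and of the 19S base (Psmd5, Psmd9 and Psmd10).

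Of the 50 genes, 49 passed the filter on low counts. The gene that did not was Psmb11, the thymus-specific beta subunit, which had 0 or 1 counts in each library. Psmc3ip, a factor of meiotic recombination, bears the prefix of the ATPase it was found with and is no proteasome part; it was kept as the rule demands and passed the test in no comparison with all libraries. Total counts per library ran from 16267965 to 24687077. The Mir142 gene had 94 to 127 counts in WT and 68 to 153 in CP CML, and 0 counts in all 12 libraries of miR-142 KO and BC CML, which allows up to 3 counts per library. The LSK gate markers Kit, Ly6a and Cd34 summed to between 1869 and 2496 CPM (counts relative to a common library total, after TMM scaling) in all 24 libraries, a sum set mostly by Kit and Cd34. Single gate markers differed between groups. Ly6a, which encodes Sca-1, had a mean of 41.6 CPM in WT, 92.3 in the miR-142 KO mice, 51.9 in CP CML and 110.3 in BC CML. Its log2 fold change was 1.15 ± 0.21 in miR-142 KO against WT (edgeR adjusted p = 0.000201) and 1.09 ± 0.21 in BC CML against CP CML (edgeR adjusted p = 0.000333). Kit fell by 0.46 in BC CML against CP CML (edgeR adjusted p = 0.000546) and rose by 0.24 in CP CML against WT (edgeR adjusted p = 0.0379). Cd34 fell by 0.31 in CP CML against WT (edgeR adjusted p = 5.98e-05) and by 0.18 in BC CML against miR-142 KO (edgeR adjusted p = 0.00890). Markers of other cells also moved with the groups. The 5 neutrophil-primed progenitor genes summed to a median of 2154 CPM in WT and 5819 in CP CML, against 6563 in the miR-142 KO mice and 7138 in BC CML. Mpo, the most abundant of them, had medians of 1691 CPM in WT and 4128 in CP CML, against 4508.5 in the miR-142 KO mice and 3738 in BC CML. The 8 B and plasma cell genes summed to 401 CPM in WT and 357 in CP CML, against 38.6 in the miR-142 KO mice and 36.6 in BC CML. Of these, Jchain had medians of 351 CPM in WT and 299 in CP CML, against 2.19 and 5.37. Cd79b had 27.9 and 27.4 CPM, against 26.5 and 27.7. In the order WT, miR-142 KO, CP CML, BC CML, the 6 mature neutrophil genes had medians of 26.5, 124, 54.2 and 84.3 CPM, and the 11 monocyte, dendritic cell and macrophage genes 387, 459.7, 523 and 364 CPM. Among the mature neutrophil genes, Lcn2 had medians of 1.38, 9.76, 36.5 and 71.1 CPM. Lcn2 and S100a8 had higher medians in both leukaemic groups than in WT, while S100a9, Ltf, Ngp and Camp had lower ones. The monocyte, dendritic cell and macrophage genes were mixed: Csf1r had medians of 47.0, 98.2, 116 and 119 CPM, and Cd74 65.6, 51.6, 53.6 and 15.5. The 8 T and NK cell genes had medians of 71.5, 127, 76.5 and 99.5 CPM, the 4 erythroid genes 97.0, 98.4, 28.2 and 19.8 CPM, and the 4 megakaryocyte genes 180.3, 393, 232 and 256 CPM. Nkg7, of the T and NK list, had 58.7, 111, 59.9 and 92.0 CPM. Cd4, of the same list, went the other way, with medians of 8.10, 4.56, 10.7 and 4.15 CPM. Of the megakaryocyte genes, Itga2b had 119, 236, 209 and 231 CPM and Gp1bb 1.14, 3.82, 0.94 and 1.15. Pf4 and Vwf had lower medians in both leukaemic groups than in WT. The part of these markers in the results on proteasome genes was not tested. In bulk RNA, fewer cells of a type and less RNA per cell cannot be told apart.

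One library stood apart. The library of miR-142 KO replicate 3 lay at a root mean square log2 distance of 0.66 from the mean of the other libraries of its group, against 0.38 to 0.50 for those 5 libraries, and at 0.70 from the BC CML mean. It had the lowest sums in its group for the neutrophil-primed (2762 CPM), B and plasma cell (27.6 CPM), monocyte, dendritic cell and macrophage (144 CPM), erythroid (17.6 CPM) and megakaryocyte (190.4 CPM) markers. The calls that ended or appeared without it, and the values of named members without it, are given after the counts of calls.

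Because the groups differ in miR-142, its mature sequences are shown first, from RefSeq on GRCm38, with bases 2 to 8 (the seed, which pairs with target sites) in capitals. The 5p arm lies at chr11:87756867-87756887 and the 3p arm at chr11:87756903-87756925, both on the plus strand.
mmu-miR-142a-5p: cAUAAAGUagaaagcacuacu
mmu-miR-142a-3p: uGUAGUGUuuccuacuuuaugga

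The 3′UTRs of the proteasome genes are short, with a median of 270.0 bases for the longest annotated 3′UTR per gene against 1166 bases over all tested genes with one, and few hold a match to a seed. A 7-base match to the 5p seed (ACTTTAT) was found in 6 of 49 proteasome 3′UTRs and in 15.8% of the 12609 tested genes with a 3′UTR. The 3p match (ACACTAC) was in 1 of 49, Psmd11, and in 6.92% of all. The matches are shown in capitals within the surrounding 3′UTR, read from GENCODE M21 transcripts on GRCm38, for a core subunit, an immunoproteasome subunit, a cap subunit, the inhibitor and a lid subunit.
Psma5: attgcccttagACTTTATttccagctctt
Psmb9: tgtaaaaataaACTTTATtattaaaaaaa
Psme2: aaatgatttatACTTTATgtata
Psmf1: aaataaatagcACTTTATaacctgttttt
Psmd11: gaaaaaggcttACACTACctaaagctgtg

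The windows lie at chr3:108279856-108279884 on the plus strand for Psma5, chr17:34182041-34182069 on the minus strand for Psmb9, chr14:55587441-55587463 on the minus strand for Psme2, chr2:151716738-151716766 on the minus strand for Psmf1 and chr11:80471950-80471978 on the plus strand for Psmd11, each within 1 exon. Psme2b and Psmg2 held the other 5p matches. In miR-142 KO against WT the log2 fold change ± standard error was 0.24 ± 0.08 (adjusted p = 0.0229) for Psma5, which rose, and -0.20 ± 0.08 (adjusted p = 0.0479) for Psmb9, which fell. Neither call held without miR-142 KO replicate 3, with 0.18 (adjusted p = 0.0614) and -0.14 (adjusted p = 0.152). The values with all libraries were 0.18 for Psme2 (adjusted p = 0.0544), -0.21 for Psme2b (adjusted p = 0.441), -0.04 for Psmf1 (adjusted p = 0.488), 0.06 for Psmg2 (adjusted p = 0.508) and 0.14 for Psmd11 (adjusted p = 0.113), none of which passed the test. A seed match is a description of these letters and not a site shown to act.

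Proteasome genes were mostly higher with BCR-ABL and with loss of miR-142, by small steps. Loss of miR-142 without leukaemia was asked by miR-142 KO against WT, where 26 members rose and 2 fell at an adjusted p below 0.05 (edgeR's quasi-likelihood test with Benjamini-Hochberg adjustment over 13520 genes; log2 fold changes are given ± the standard error), beside 19.9% of all tested genes higher and 16.4% lower. The median log2 fold change of the 49 members was 0.20, against 0.01 over all tested genes. Loss of miR-142 within leukaemia, BC CML against CP CML, gave 22 that rose and 2 that fell, beside 20.4% of all genes higher and 17.6% lower, with a median of 0.19 against 0.01. The effect of BCR-ABL with intact miR-142, CP CML against WT, gave 35 that rose and 2 that fell, beside 22.5% higher and 22.9% lower, with a median of 0.27 against -0.02. BCR-ABL without miR-142, BC CML against miR-142 KO, gave 35 that rose and 3 that fell, beside 20.3% higher and 19.3% lower, with a median of 0.27 against -0.02. The comparisons share groups, so their counts are not independent of each other.

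**Figure D1:**
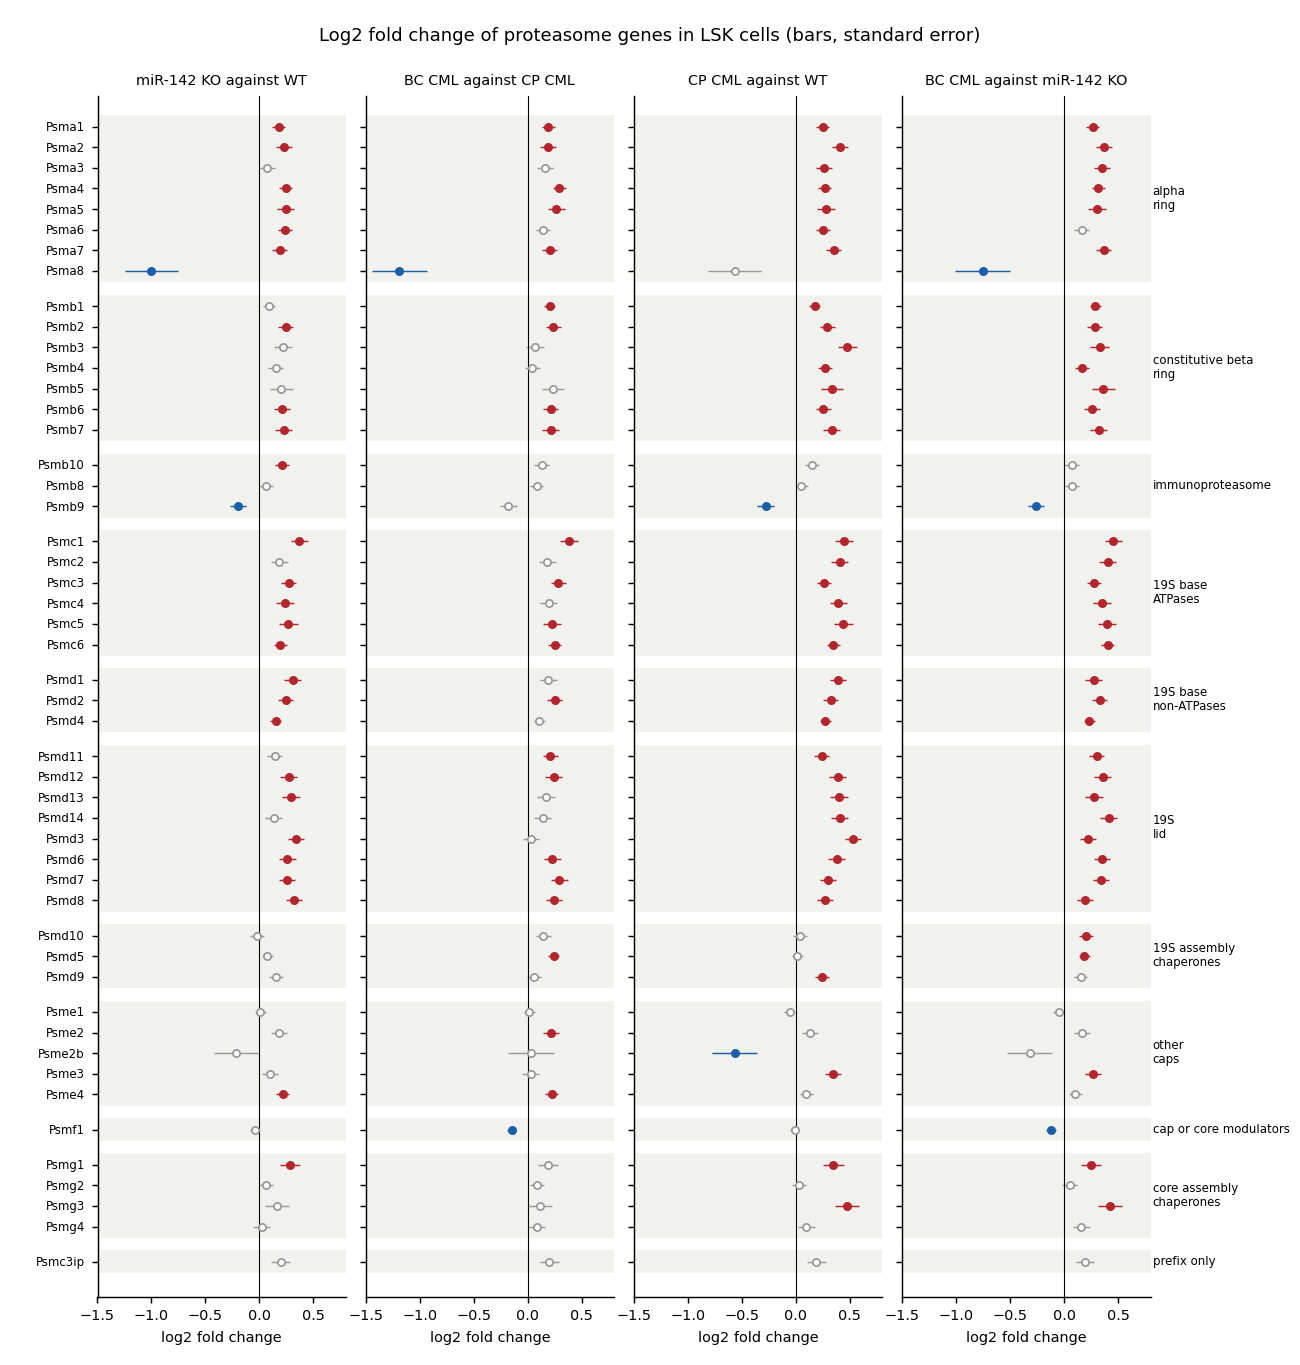
Log2 fold change (x axis) of the 49 tested proteasome genes (rows, grouped by role) in the 4 comparisons (panels), with bars for the standard error; filled red points rose and filled blue points fell at an adjusted p below 0.05, and open grey points did not pass. Core genes other than Psma8 and the genes of the 19S base and lid lie to the right of 0 in each panel, while Psmb9 and Psma8 lie to the left.

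No proteasome gene passed a test of whether loss of miR-142 acted differently with and without BCR-ABL. In the test of the difference of the miR-142 effects (BC CML minus CP CML, less miR-142 KO minus WT), 0 of 49 members passed, beside 1.91% of all genes higher and 2.08% lower. At an unadjusted p below 0.05 there were 2, Psmd3 with -0.31 ± 0.11 (adjusted p = 0.108) and Psmd5, a chaperone of the 19S base, with 0.17 ± 0.07 (adjusted p = 0.186), and DESeq2 and the likelihood ratio test also called 0. Psmd3 passed when WT replicate 3 (-0.36, adjusted p = 0.0490), CP CML replicate 5 (-0.37, adjusted p = 0.0413) or CP CML replicate 6 (-0.38, adjusted p = 0.0384) was left out. The median difference over members was 0.0050, with 26 above and 23 below 0.

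Leaving out miR-142 KO replicate 3 lowered the count in miR-142 KO against WT from 28 to 19 (18 rose, 1 fell, median 0.13) and raised that in BC CML against miR-142 KO from 38 to 43 (40 rose, 3 fell, median 0.35). The 9 calls that ended in the first were Psma1, Psma5, Psma7, Psmb6, Psmb7, Psmb9, Psmc4, Psmd4 and Psmg1, with adjusted p-values from 0.0519 to 0.152 in edgeR's test. The 5 that appeared in the second were Psma6, Psmc3ip, Psmd9, Psme2 and Psmg4. With the 12 libraries of miR-142 KO and WT fitted alone, 17 were called (16 rose, 1 fell). Without CP CML replicate 6, BC CML against CP CML gave 13 in place of 24 (11 rose, 2 fell). Upper quartile scaling gave 18 members in BC CML against CP CML (15 rose, 3 fell) and 20 in miR-142 KO against WT (18 rose, 2 fell), and moved the share of all called genes that rose from 53.7% to 42.4% and from 54.7% to 42.0% in these comparisons.

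Named members moved with that library by differing amounts. In miR-142 KO against WT, the log2 fold change without miR-142 KO replicate 3 was 0.19 for Psma4, 0.22 for Psmc3, 0.15 for Psmc6, 0.22 for Psmd1, 0.28 for Psmd3, 0.20 for Psmd7, 0.25 for Psmd8 and 0.26 for Psme4, all of which still rose. Psma8 still fell (-0.81). It was 0.12 for Psmb3, 0.12 for Psmb5, 0.05 for Psmd14 and 0.04 for Psmg3, none of which passed with or without it. In BC CML against miR-142 KO, leaving it out gave 0.37 for Psma4, 0.42 for Psmb3, 0.44 for Psmb5, 0.32 for Psmc3, 0.44 for Psmc6, 0.36 for Psmd1, 0.28 for Psmd3, 0.39 for Psmd7, 0.26 for Psmd8, 0.49 for Psmd14 and 0.55 for Psmg3, which all rose, -0.94 for Psma8, which fell, and 0.06 for Psme4, which did not pass.

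Most genes of the 20S core rose. Levels were summed in CPM per kilobase, which divides by the deposited gene length. This scale does not correct for reads that could be split or dropped where a gene has copies. Over the alpha subunits the sums ran from 513 to 633 CPM per kilobase in WT (median 548) and 599 to 781 in the miR-142 KO mice (median 612). For alpha subunits, CP CML ran from 626 to 726 (median 686) and BC CML from 719 to 819 (median 792). For the 7 constitutive beta subunits the sums ran from 394 to 484 CPM per kilobase in WT (median 419) and 429 to 577 in the miR-142 KO mice (median 466). For beta subunits, CP CML ran from 459 to 546 (median 519) and BC CML from 529 to 595 (median 581). The ranges of WT and BC CML did not overlap in either ring, and the highest miR-142 KO value in both was that of replicate 3. In CP CML against WT, 7 of 8 alpha subunits and 7 of 7 beta subunits rose. In BC CML against miR-142 KO, 6 of 8 alpha subunits rose, and 7 of 7 beta subunits. Psma6 was the ubiquitous alpha subunit that did not pass (0.16), but it did without miR-142 KO replicate 3 (0.21, adjusted p = 0.00604). The call of Psmb4 in BC CML against miR-142 KO was lost in 11 of 12 fits that each left out 1 mouse. In miR-142 KO against WT 6 of 8 alpha and 3 of 7 beta subunits rose, and in BC CML against CP CML 5 of 8 alpha and 4 of 7 beta subunits rose. In BC CML against CP CML the call of Psma2 was lost in 10 of 12 fits that each left out 1 mouse. The calls of Psma7, Psma1 and Psma5 there were lost in 5, 2 and 1 such fits. Psma8 fell in 3 of the 4 comparisons.

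Among alpha subunits, Psma4 rose in all 4 comparisons. It lay at 81.8 to 98.4 CPM in WT (median 90.1) and 98.04 to 128 in the miR-142 KO mice (median 101). For Psma4, CP CML ran from 97.5 to 115 (median 108) and BC CML from 118 to 139 (median 135). The log2 fold change was 0.29 ± 0.06 (adjusted p = 0.000527) in BC CML against CP CML, where the groups did not overlap, and 0.24 ± 0.06 (adjusted p = 0.00293) in miR-142 KO against WT. In CP CML against WT Psma4 differed by 0.27 ± 0.06 (adjusted p = 0.00111), and in BC CML against miR-142 KO by 0.32 ± 0.06 (adjusted p = 0.000359). The other ubiquitous alpha subunits, Psma1, Psma2, Psma3, Psma5, Psma6 and Psma7, had log2 fold changes between 0.07 and 0.41 over the 4 comparisons, and all of them rose in CP CML against WT.

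Psma8, the alpha subunit of the testis proteasome, went the other way at a low level. Its values were 5.401 to 9.09 CPM in WT (median 8.63) and 1.33 to 6.89 in the miR-142 KO mice (median 3.82). For Psma8, CP CML ran from 4.79 to 6.56 (median 5.18) and BC CML from 1.60 to 3.90 (median 2.23). BC CML lay below CP CML in all mice, with a log2 fold change of -1.19 ± 0.25 (adjusted p = 0.000747), and miR-142 KO was lower than WT with overlap (-1.001 ± 0.24, adjusted p = 0.00260). The difference was -0.57 ± 0.24 (adjusted p = 0.0587) in CP CML against WT, which did not pass, and -0.75 ± 0.25 (adjusted p = 0.0214) in BC CML against miR-142 KO, a call that ended without BC CML replicate 1 (adjusted p = 0.0535) or miR-142 KO replicate 5 (adjusted p = 0.0819) and in the fit of those 12 libraries alone (adjusted p = 0.0764).

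The active-site subunits of the constitutive core were the counterpart to the immunoproteasome. Psmb6, the caspase-like subunit, lay at 74.6 to 87.9 CPM in WT (median 78.1) and 79.5 to 117 in the miR-142 KO mice (median 88.1). For Psmb6, CP CML ran from 84.3 to 102 (median 97.8) and BC CML from 96.5 to 116 (median 111). It rose in each comparison, by 0.21 in miR-142 KO against WT (adjusted p = 0.02798), 0.21 in BC CML against CP CML (adjusted p = 0.0232), 0.25 in CP CML against WT (adjusted p = 0.00660) and 0.26 in BC CML against miR-142 KO (adjusted p = 0.00698). Psmb7, the trypsin-like subunit, lay at 78.3 to 105 CPM in WT (median 86.5) and 91.2 to 131 in the miR-142 KO mice (median 98.4). For Psmb7, CP CML ran from 101 to 120.4 (median 112) and BC CML from 116 to 135 (median 131). It too rose in each comparison, by 0.22 (adjusted p = 0.0251), 0.21 (adjusted p = 0.0316), 0.33 (adjusted p = 0.00136) and 0.32 (adjusted p = 0.00236) in the same order. Their calls in both miR-142 contrasts were close to the threshold: in miR-142 KO against WT neither passed without replicate 3 of the miR-142 KO mice (0.13 for Psmb6 and 0.15 for Psmb7), and in BC CML against CP CML the call was lost in 5 of 12 fits that each left out 1 mouse for Psmb6 and in 9 of 12 for Psmb7.

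Psmb5, the chymotrypsin-like subunit and the main target of proteasome inhibitors, lay at 11.9 to 15.5 CPM in WT (median 13.3) and 12.6 to 19.9 in the miR-142 KO mice (median 15.1). For Psmb5, CP CML ran from 13.9 to 18.6 (median 17.6) and BC CML from 15.5 to 22.4 (median 20.5). It rose by 0.33 ± 0.11 (adjusted p = 0.0127) in CP CML against WT and by 0.36 ± 0.10 (adjusted p = 0.00843) in BC CML against miR-142 KO, and its values in the miR-142 contrasts were 0.20 ± 0.11 (adjusted p = 0.135) and 0.23 ± 0.10 (adjusted p = 0.0801). Of the windows of 50 bases in the Psmb5 transcript, 57.1% also occur in another annotated gene, among them the pseudogene Psmb5-ps, so that reads from this gene could be split or dropped and its level is uncertain. Psmb3, a structural subunit of the beta ring with 55.8% of its windows in other genes, lay at 24.2 to 29.6 CPM in WT (median 24.4) and 26.5 to 39.7 in the miR-142 KO mice (median 27.3). For Psmb3, CP CML ran from 33.0 to 39.1 (median 34.9) and BC CML from 32.9 to 39.8 (median 38.2). CP CML and WT did not overlap for Psmb3, and it rose by 0.48 ± 0.09 (adjusted p = 0.000121) in that comparison and by 0.33 ± 0.09 (adjusted p = 0.00415) in BC CML against miR-142 KO, while it did not pass in miR-142 KO against WT (0.22 ± 0.09, adjusted p = 0.0509) or in BC CML against CP CML (0.07 ± 0.08, adjusted p = 0.557). In miR-142 KO against WT, Psmb3 did pass in 5 of 12 fits that each left out 1 mouse (edgeR adjusted p from 0.0189 to 0.0414). Psmb1, Psmb2 and Psmb4 had log2 fold changes from 0.04 to 0.29.

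**Figure D2:**
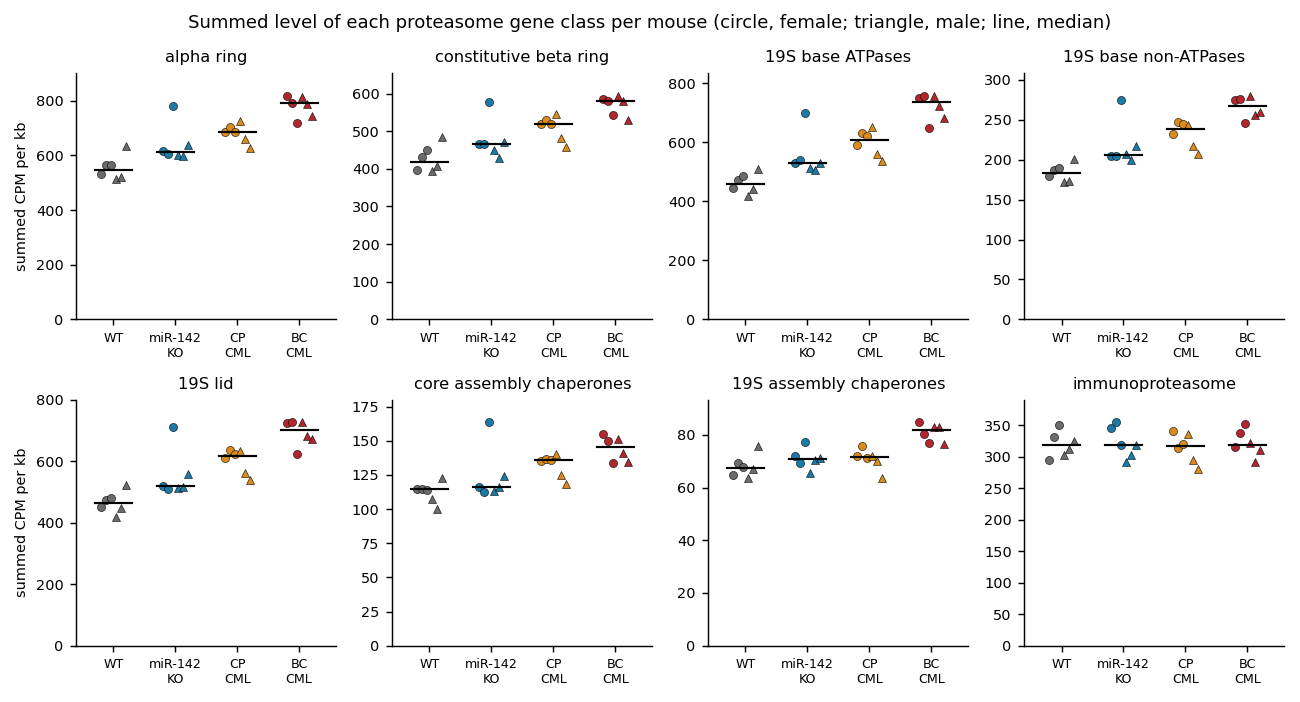
Summed level in CPM per kilobase (y axis, from 0) of 8 proteasome gene classes in each mouse (points) by group, with the group median as a line. The median sums of the rings and of the 19S base and lid step up from WT to BC CML, with miR-142 KO replicate 3 far above the rest of its group, while the immunoproteasome sum has group medians between 317 and 319.

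Most genes of the 19S cap rose as well. The 6 ATPases of the base summed to 419 to 510.5 CPM per kilobase in WT (median 458) and 507 to 699.8 in the miR-142 KO mice (median 529.9). For the ATPases, CP CML ran from 537 to 651 (median 607) and BC CML from 648 to 758 (median 737). All 6 rose in CP CML against WT and in BC CML against miR-142 KO, 5 in miR-142 KO against WT and 4 in BC CML against CP CML. Of the 5, Psmc4 did not pass without miR-142 KO replicate 3 (0.14, adjusted p = 0.0635), and of the 4, Psmc5 was lost in 9 of 12 fits that each left out 1 mouse. The 3 other subunits of the base, Psmd1, Psmd2 and Psmd4, summed to 172 to 201 CPM per kilobase in WT (median 183) and 199.9 to 274 in the miR-142 KO mice (median 206). For these base subunits, CP CML ran from 207 to 248 (median 238) and BC CML from 246 to 280.2 (median 267). The 8 lid subunits summed to 419 to 523 CPM per kilobase in WT (median 464) and 508 to 711 in the miR-142 KO mice (median 518). For the lid, CP CML ran from 539 to 635 (median 617) and BC CML from 625 to 728 (median 702). As for the ATPases, all 8 lid subunits rose in CP CML against WT and in BC CML against miR-142 KO. Of the 8, 6 rose in miR-142 KO against WT and 5 in BC CML against CP CML. In BC CML against CP CML the call of Psmd6 was lost in 5 of 12 fits that each left out 1 mouse. Psmd11 lost its call there in 4 such fits and Psmd12 in 1.

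Psmc1, an ATPase of the ring that opens the core gate, rose most of all members in 3 of the 4 comparisons. It lay at 109.6 to 140.1 CPM in WT (median 125) and 139.5 to 206 in the miR-142 KO mice (median 158). For Psmc1, CP CML ran from 147 to 189 (median 172) and BC CML from 201 to 241 (median 227). The log2 fold change was 0.37 ± 0.08 (adjusted p = 0.00100) in miR-142 KO against WT and 0.38 ± 0.08 (adjusted p = 0.000737) in BC CML against CP CML, where each BC CML mouse was above each CP CML mouse. It was 0.45 ± 0.08 (adjusted p = 0.000144) in CP CML against WT and 0.46 ± 0.08 (adjusted p = 0.000185) in BC CML against miR-142 KO. Of its windows 17.6% lie in pseudogenes. Without miR-142 KO replicate 3 the log2 fold change was 0.30 in miR-142 KO against WT. Psmc3, another ATPase, lay at 155 to 188 CPM in WT (median 166) and 183 to 240.3 in the miR-142 KO mice (median 195). For Psmc3, CP CML ran from 174 to 224 (median 208) and BC CML from 225 to 258 (median 251). It rose by 0.27 ± 0.07 (adjusted p = 0.00304) in miR-142 KO against WT and by 0.28 ± 0.07 (adjusted p = 0.00180) in BC CML against CP CML, in which the groups did not overlap, and by 0.26 and 0.28 in the BCR-ABL contrasts. Psmc6 lay at 119.7 to 149 CPM in WT (median 132) and 139.8 to 179 in the miR-142 KO mice (median 147). For Psmc6, CP CML ran from 161 to 175 (median 169) and BC CML from 180.3 to 218 (median 199). Its BC CML values lay above all miR-142 KO values, replicate 3 included, with a log2 fold change of 0.40 ± 0.06 (adjusted p = 1.79e-05), and it rose by 0.19, 0.25 and 0.35 in miR-142 KO against WT, BC CML against CP CML and CP CML against WT. Psmc2, Psmc4 and Psmc5 rose by 0.35 to 0.44 in the BCR-ABL contrasts.

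In the base, Psmd1, a large scaffold subunit that docks ubiquitin receptors, lay at 220.0 to 269 CPM in WT (median 234) and 261 to 392 in the miR-142 KO mice (median 275). For Psmd1, CP CML ran from 286 to 333 (median 315) and BC CML from 327 to 379 (median 359). It rose by 0.31 ± 0.08 (adjusted p = 0.00323) in miR-142 KO against WT, 0.39 ± 0.08 (adjusted p = 0.000329) in CP CML against WT and 0.27 ± 0.08 (adjusted p = 0.00728) in BC CML against miR-142 KO, while its value in BC CML against CP CML was 0.19 ± 0.08 (adjusted p = 0.0529). Psmd2, the other scaffold, rose in all 4 comparisons by 0.24 to 0.33. Psmd4, a ubiquitin receptor, rose in 3 of them, and had 0.11 in BC CML against CP CML. Its call in miR-142 KO against WT ended without miR-142 KO replicate 3 (0.11, adjusted p = 0.0677) or WT replicate 4 (adjusted p = 0.0534).

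Psmd3, a lid subunit, had the largest rise of any member in the 4 comparisons. Its values were 108 to 127 CPM in WT (median 113) and 134 to 181 in the miR-142 KO mice (median 137). For Psmd3, CP CML ran from 139 to 181 (median 176) and BC CML from 151 to 177 (median 176). It rose by 0.53 ± 0.08 (adjusted p = 1.31e-05) in CP CML against WT, and by 0.34 ± 0.08 (adjusted p = 0.00130) in miR-142 KO against WT, and in both the groups did not overlap. BC CML and CP CML overlapped, with 0.03 ± 0.08 (adjusted p = 0.778), and the value in BC CML against miR-142 KO was 0.22 ± 0.08 (adjusted p = 0.0255), a call lost in 8 of 12 fits that each left out 1 mouse. Psmd14, the deubiquitinase of the lid, lay at 115 to 154 CPM in WT (median 133) and 129.6 to 190.1 in the miR-142 KO mice (median 135). For Psmd14, CP CML ran from 166 to 185 (median 175) and BC CML from 168 to 211 (median 194). It rose by 0.41 ± 0.08 (adjusted p = 0.000335) in CP CML against WT without overlap and by 0.41 ± 0.08 (adjusted p = 0.000437) in BC CML against miR-142 KO, and did not pass in miR-142 KO against WT (0.13 ± 0.08, adjusted p = 0.214) or BC CML against CP CML (0.14 ± 0.08, adjusted p = 0.180).

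Psmd7, the partner of Psmd14 in the lid, rose in all 4 comparisons. It lay at 123 to 157 CPM in WT (median 144) and 150.1 to 207 in the miR-142 KO mice (median 164). For Psmd7, CP CML ran from 152 to 193 (median 182) and BC CML from 189 to 229 (median 217). It rose by 0.25 ± 0.08 (adjusted p = 0.0106) in miR-142 KO against WT and 0.29 ± 0.07 (adjusted p = 0.00342) in BC CML against CP CML. Psmd8 lay at 123 to 153 CPM in WT (median 131) and 149 to 212 in the miR-142 KO mice (median 159.8). For Psmd8, CP CML ran from 146 to 172 (median 161) and BC CML from 175 to 199 (median 191). It rose by 0.32 ± 0.07 (adjusted p = 0.00133) in miR-142 KO against WT, 0.24 ± 0.07 (adjusted p = 0.00979) in BC CML against CP CML without overlap and 0.27 ± 0.07 (adjusted p = 0.00453) in CP CML against WT. Its value of 0.19 ± 0.07 (adjusted p = 0.0369) in BC CML against miR-142 KO lost the call in 10 of 12 fits that each left out 1 mouse. The remaining lid subunits, Psmd6, Psmd11, Psmd12 and Psmd13, had log2 fold changes from 0.14 to 0.40.

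**Figure D3:**
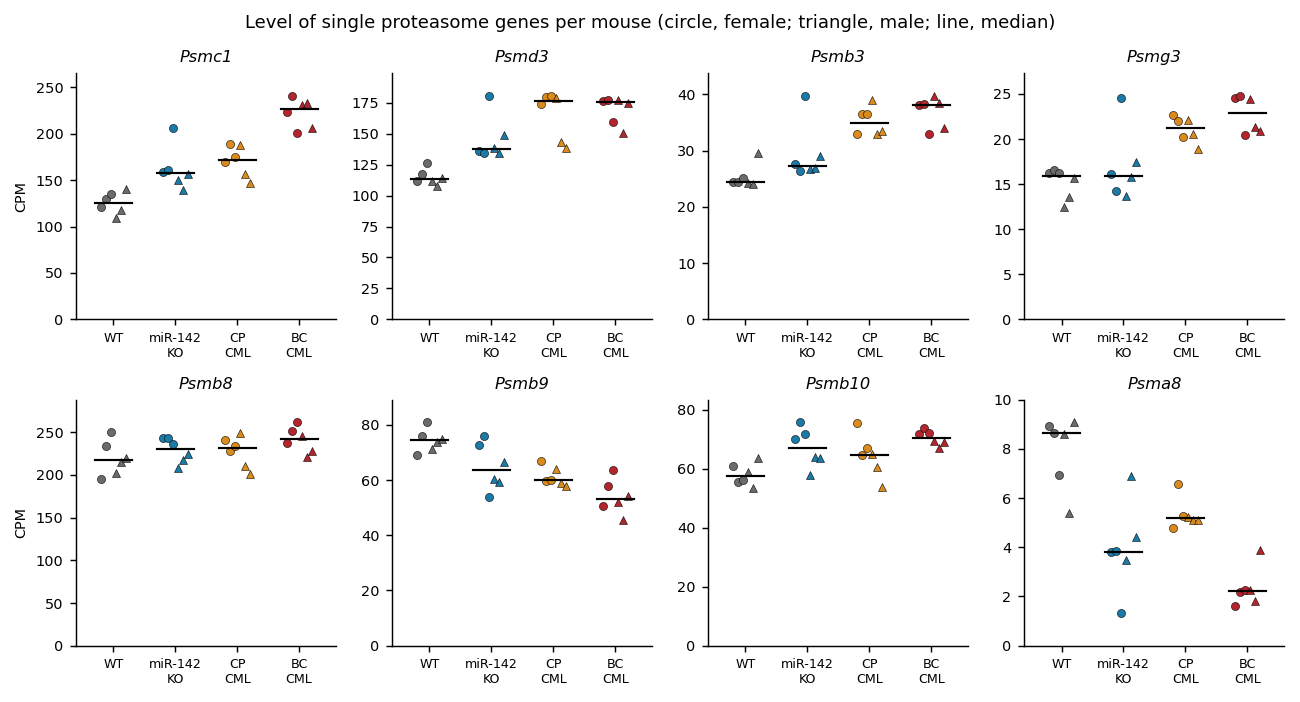
Level in CPM (y axis, from 0) of 8 proteasome genes in each mouse (points) by group, with the group median as a line. Psmc1, Psmd3, Psmb3 and Psmg3 have higher medians in both leukaemic groups than in WT, Psmb8 varies between 195 and 262 CPM in all groups, and Psmb9 and Psma8 are lowest in BC CML by median.

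The immunoproteasome genes did not rise as a group. The 3 subunits summed to 295 to 351 CPM per kilobase in WT (median 318) and 292 to 355 in the miR-142 KO mice (median 318). For immunoproteasome subunits, CP CML ran from 281 to 341 (median 317) and BC CML from 292 to 352 (median 319). All 4 groups overlapped. Psmb8, the most abundant of the 3, lay at 195 to 249.8 CPM in WT (median 218) and 208 to 244 in the miR-142 KO mice (median 230.4). For Psmb8, CP CML ran from 202 to 249.6 (median 231) and BC CML from 221 to 262 (median 242). It shares 5.83% of its 50-base windows with an antisense gene. Psmb8 passed the test in no comparison, with log2 fold changes of 0.06 ± 0.06 (adjusted p = 0.471) in miR-142 KO against WT, 0.08 ± 0.06 (adjusted p = 0.299) in BC CML against CP CML, 0.05 ± 0.06 (adjusted p = 0.521) in CP CML against WT and 0.07 ± 0.06 (adjusted p = 0.353) in BC CML against miR-142 KO.

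Psmb9 overlaps the neighbouring Tap1 over 12.5% of its windows, and whether the counting used strand is not given in the sources used here. It lay at 68.9 to 81.1 CPM in WT (median 74.4) and 53.9 to 75.8 in the miR-142 KO mice (median 63.5). For Psmb9, CP CML ran from 57.9 to 66.8 (median 59.9) and BC CML from 45.5 to 63.8 (median 53.2). Each CP CML mouse was below each WT mouse, and Psmb9 fell in that comparison (-0.28 ± 0.08, adjusted p = 0.00526) and in BC CML against miR-142 KO (-0.26 ± 0.08, adjusted p = 0.0102). Against WT, Psmb9 in the miR-142 KO mice fell by 0.20 ± 0.08 (adjusted p = 0.0479), a call lost in 9 of 12 fits that each left out 1 mouse, with -0.14 (adjusted p = 0.152) without miR-142 KO replicate 3. The value in BC CML against CP CML was -0.18 ± 0.08 (adjusted p = 0.0709), which passed with DESeq2 (-0.19), upper quartile scaling (-0.23), a filter of 1 CPM in 6 libraries (-0.20) and the 12 libraries alone (-0.19). Psmb10 lay at 53.5 to 63.4 CPM in WT (median 57.4) and 57.7 to 75.8 in the miR-142 KO mice (median 66.9). For Psmb10, CP CML ran from 53.9 to 75.6 (median 64.8) and BC CML from 67.1 to 73.6 (median 70.5). It rose in miR-142 KO against WT (0.21 ± 0.07, adjusted p = 0.0185), though not with upper quartile scaling (0.16, adjusted p = 0.0699), and did not pass in BC CML against CP CML (0.13 ± 0.07, adjusted p = 0.134), CP CML against WT (0.15 ± 0.07, adjusted p = 0.0756) or BC CML against miR-142 KO (0.07 ± 0.07, adjusted p = 0.425).

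Set against the constitutive subunit whose place it takes, each immunoproteasome subunit was compared as a ratio of CPM per kilobase within a library, which library scaling does not change, with an exact 2-sided permutation test over mice. The smallest p that 6 against 6 mice can give is 0.00216, and p-values were adjusted over 12 tests. Psmb9 over Psmb6 ran from 1.097 to 1.31 in WT (median 1.22) and 0.59 to 1.07 in the miR-142 KO mice (median 0.98). For Psmb9 over Psmb6, CP CML ran from 0.78 to 0.89 (median 0.84) and BC CML from 0.52 to 0.76 (median 0.62). The ratio was lower in each miR-142-deficient mouse than in each mouse of the matched group with miR-142. On the log2 scale the difference was -0.40 ± 0.13 (SE) in miR-142 KO against WT (exact p = 0.00216, adjusted p = 0.00866) and -0.40 ± 0.09 (SE) in BC CML against CP CML, with the same exact p and adjusted p. Without miR-142 KO replicate 3, whose ratio of 0.59 was the lowest of its group, the first difference was -0.28. CP CML lay below WT without overlap, with a difference of -0.53 ± 0.05 (SE) (exact p = 0.00216, adjusted p = 0.00866), and BC CML below miR-142 KO with overlap through replicate 3, with a difference of -0.53 ± 0.15 (SE) (exact p = 0.0130, adjusted p = 0.0260). That last call ended at an adjusted p of 0.0519 without miR-142 KO replicate 1, 2, 5 or 6 or without BC CML replicate 4 or 5.

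Psmb8 over Psmb5 ran from 10.1 to 13.0 in WT (median 11.9) and 8.44 to 12.9 in the miR-142 KO mice (median 10.7). For Psmb8 over Psmb5, CP CML ran from 9.19 to 10.4 (median 9.54) and BC CML from 7.47 to 12.04 (median 8.34). It was lower in CP CML than in WT, with a difference of -0.28 ± 0.06 (SE) (exact p = 0.00433, adjusted p = 0.0130), and did not pass in BC CML against miR-142 KO (-0.29 ± 0.14 (SE), exact permutation, adjusted p = 0.0942), in miR-142 KO against WT (-0.13 ± 0.11 (SE), exact permutation, adjusted p = 0.304) or in BC CML against CP CML (-0.15 ± 0.10 (SE), exact permutation, adjusted p = 0.260). BC CML replicate 3 stood above the other BC CML mice, and without it the last difference was -0.24 (exact permutation, adjusted p = 0.0104). The size of this ratio rests on Psmb5, whose level is uncertain. Psmb10 over Psmb7 ran from 1.53 to 1.92 in WT (median 1.65) and 1.40 to 1.99 in the miR-142 KO mice (median 1.67). For Psmb10 over Psmb7, CP CML ran from 1.36 to 1.73 (median 1.45) and BC CML from 1.31 to 1.59 (median 1.39). It was lower in BC CML than in miR-142 KO, with a difference of -0.25 ± 0.08 (SE) (exact p = 0.00866, adjusted p = 0.0208), and the differences of -0.19 ± 0.08 (SE) in CP CML against WT, -0.08 ± 0.07 (SE) in BC CML against CP CML and -0.01 ± 0.09 (SE) in miR-142 KO against WT did not pass.

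**Figure D4:**
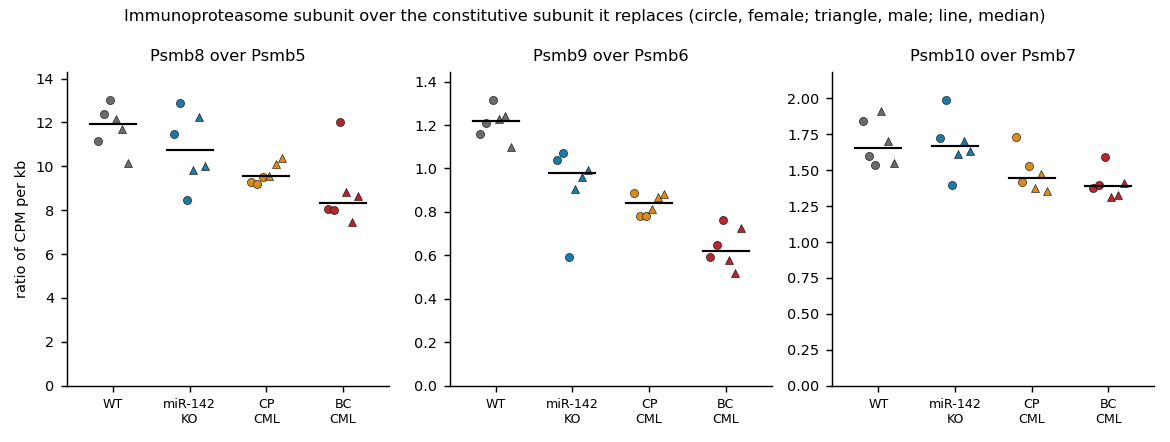
Ratio of CPM per kilobase (y axis, from 0) of each immunoproteasome subunit to the constitutive subunit it replaces, per mouse (points) by group, with the group median as a line. The median of Psmb9 over Psmb6 is 1.22 in WT and 0.84 in CP CML, against 0.98 in the miR-142 KO mice and 0.62 in BC CML.

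The alternative caps and their partners were mixed. Psme1, the PA28 alpha subunit that is induced with the immunoproteasome, lay at 208 to 219 CPM in WT (median 218) and 195 to 241 in the miR-142 KO mice (median 216). For Psme1, CP CML ran from 201 to 217 (median 206) and BC CML from 195 to 229 (median 208). Its log2 fold changes lay between -0.06 and 0.02, with no call. Psme2, the PA28 beta subunit, lay at 35.2 to 40.5 CPM in WT (median 36.7) and 37.8 to 51.9 in the miR-142 KO mice (median 40.0). For Psme2, CP CML ran from 35.8 to 44.7 (median 41.1) and BC CML from 43.4 to 50.2 (median 47.9). It rose in BC CML against CP CML (0.22 ± 0.07, adjusted p = 0.0235), a call lost in 6 of 12 fits that each left out 1 mouse, and did not pass in the other comparisons (0.13 to 0.18) with all libraries. Without miR-142 KO replicate 3 it rose in BC CML against miR-142 KO (0.22, adjusted p = 0.00691). Psme2b, a near copy of Psme2 with 69.3% of its transcript windows in other genes, lay at 1.92 to 3.96 CPM in WT (median 3.22) and 1.72 to 4.16 in the miR-142 KO mice (median 2.32). For Psme2b, CP CML ran from 1.49 to 2.30 (median 2.25) and BC CML from 1.62 to 2.57 (median 2.17). In CP CML against WT it fell by 0.57 ± 0.21 (adjusted p = 0.0311), a call that 5 of 12 fits without 1 mouse lost, and reads could be shared with Psme2. Psme3, the nuclear PA28 gamma, rose in CP CML against WT (0.34 ± 0.08, adjusted p = 0.000890) and in BC CML against miR-142 KO (0.27 ± 0.08, adjusted p = 0.00697). Psme4, the PA200 cap, rose instead in both miR-142 contrasts, with 0.22 ± 0.06 (adjusted p = 0.00725) in miR-142 KO against WT and 0.22 ± 0.06 (adjusted p = 0.00538) in BC CML against CP CML, and had 0.10 and 0.10 in the BCR-ABL contrasts; whether these effects differ was not tested.

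Psmf1, an inhibitor of the core known as PI31, was among the members that fell. It lay at 40.8 to 45.7 CPM in WT (median 43.5) and 39.7 to 43.8 in the miR-142 KO mice (median 42.5). For Psmf1, CP CML ran from 41.3 to 44.4 (median 43.1) and BC CML from 36.0 to 42.8 (median 38.2). It fell in BC CML against CP CML (-0.15 ± 0.04, adjusted p = 0.0104) and in BC CML against miR-142 KO (-0.12 ± 0.04, adjusted p = 0.0348). The latter was lost with the likelihood ratio test (adjusted p = 0.0693), in the 12 libraries alone (adjusted p = 0.0637), and without BC CML replicate 5 (adjusted p = 0.0563) or miR-142 KO replicate 4 (adjusted p = 0.0594). In miR-142 KO against WT and CP CML against WT the values were -0.04 and -0.01.

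Assembly chaperones followed in part. Psmg3, a chaperone of the core with 22.7% of its windows in the gene Gm26938, lay at 12.5 to 16.6 CPM in WT (median 15.9) and 13.6 to 24.5 in the miR-142 KO mice (median 15.9). For Psmg3, CP CML ran from 18.9 to 22.7 (median 21.3) and BC CML from 20.5 to 24.8 (median 22.9). CP CML and WT did not overlap, and Psmg3 rose by 0.48 ± 0.11 (adjusted p = 0.00132) there and by 0.43 ± 0.11 (adjusted p = 0.00396) in BC CML against miR-142 KO, with 0.16 in miR-142 KO against WT and 0.11 in BC CML against CP CML. Psmg1 rose in 3 comparisons (0.28, 0.35 and 0.25 in miR-142 KO against WT, CP CML against WT and BC CML against miR-142 KO), and Psmg2 and Psmg4 in none. Without miR-142 KO replicate 3, Psmg1 did not pass in miR-142 KO against WT (0.18, adjusted p = 0.0519), and Psmg4 rose in BC CML against miR-142 KO (0.22, adjusted p = 0.00813). The call of Psmg1 in that comparison was lost in 8 of 12 fits that each left out 1 mouse. Of the chaperones of the 19S base, Psmd5 rose by 0.24 in BC CML against CP CML and 0.19 in BC CML against miR-142 KO, Psmd10 by 0.20 in the latter and Psmd9 by 0.24 in CP CML against WT. No chaperone of the base passed in miR-142 KO against WT, with values from -0.02 to 0.15.

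Counted by groups without overlap, 12 members were higher in every BC CML mouse than in every CP CML mouse and 1 lower, beside 11.4% and 9.28% of all tested genes. In CP CML against WT the counts were 19 and 1, beside 11.9% and 9.87%. In miR-142 KO against WT 2 were higher and 0 lower, beside 8.32% and 6.14%, and in BC CML against miR-142 KO 3 were higher and 0 lower, beside 6.08% and 4.48%. The members apart in miR-142 KO against WT were Psmd2 and Psmd3, and those in BC CML against miR-142 KO were Psmb1, Psmc6 and Psmd10.

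Levels per kilobase differed widely between members. In WT the highest mean levels were those of Psme1 (223 CPM per kilobase), Psmb8 (180.3) and Psma6 (140.1), and the lowest among tested members those of Psme2b (2.89), Psma8 (4.52) and Psmf1 (7.75). Psmb5 was at 15.4, against 77.0 for Psmb6 and 27.4 for Psmb7. Of the 50 members, 19 had over 5% of the 50-base windows of their longest transcript in another annotated gene, and for Psma5, Psmb3, Psmb5, Psme2 and Psme2b the share was 55.4% to 69.3%.

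The promoters of the proteasome genes were searched, from 250 bases before to 50 after the start in RefSeq on GRCm38, for short motifs on both strands, of which 3 are given here, and 41 of 49 tested members had a sequence. The antioxidant response element core (TGACNNNGC), bound by the NRF family, was in 6 of 41 members and in 17.3% of all tested genes with a promoter sequence. The IRF motif (GAAA and again GAAA after a gap of 2 bases) was in 5 of 41 members and 3.86% of tested genes, and the CCAAT box in 14 of 41 and 42.6%. The following 3 are shown because they lie at constitutive active-site subunits (Psmb5 and Psmb6, with the antioxidant response element core) and at the PA28 alpha gene (Psme1, with the IRF motif on the opposite strand). Capitals mark the motif.
Psmb5: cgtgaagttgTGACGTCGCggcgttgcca
Psmb6: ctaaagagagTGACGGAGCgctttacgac
Psme1: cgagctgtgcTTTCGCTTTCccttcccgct

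These windows lie at chr14:54618024-54618052 (minus strand gene), chr11:70525338-70525366 (plus strand gene) and chr14:55578493-55578522 (plus strand gene). None of the 3 immunoproteasome genes held the IRF letters in its window, and a match or its lack says nothing about binding in these cells.

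The counts in the gene lists that follow stand beside the shares of all tested genes called: 19.9% higher and 16.4% lower in miR-142 KO against WT, 20.4% and 17.6% in BC CML against CP CML, 22.5% and 22.9% in CP CML against WT, and 20.3% and 19.3% in BC CML against miR-142 KO. The lists are short, and nothing particular to a list is read from its counts.

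Partners of the proteasome that lack the prefix were read from a list of 10 genes found in the table. Of these, 3 rose in miR-142 KO against WT, 5 in BC CML against CP CML, 4 in CP CML against WT and 6 in BC CML against miR-142 KO, where 1, the ubiquitin-binding Zfand5, fell by 0.31 ± 0.12 (adjusted p = 0.0389). Sem1, the smallest 19S subunit, rose in all 4 comparisons, by 0.23 in miR-142 KO against WT (adjusted p = 0.0161), 0.31 in BC CML against CP CML (adjusted p = 0.00165), 0.28 in CP CML against WT (adjusted p = 0.00345) and 0.36 in BC CML against miR-142 KO (adjusted p = 0.000585). Ube3c, a ubiquitin ligase that works at the proteasome, rose in both miR-142 contrasts, by 0.34 ± 0.05 (adjusted p = 3.59e-05) and 0.46 ± 0.05 (adjusted p = 6.85e-07). The deubiquitinase Uchl5 rose by 0.46 ± 0.10 (adjusted p = 0.00106) in CP CML against WT and 0.57 ± 0.10 (adjusted p = 0.000267) in BC CML against miR-142 KO, in which Pomp, the maturation factor of the core, rose by 0.26 ± 0.06 (adjusted p = 0.00194).

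Of 7 genes that regulate proteasome genes, 2 rose and 1 fell in miR-142 KO against WT. In BC CML against CP CML 2 rose and 0 fell. There were 5 that rose and 2 that fell in CP CML against WT, and 4 and 2 in BC CML against miR-142 KO. Among these genes, Nfe2l2, which encodes NRF2, rose in miR-142 KO against WT (0.31 ± 0.04, adjusted p = 5.04e-06), BC CML against CP CML (0.41 ± 0.04, adjusted p = 1.15e-07) and BC CML against miR-142 KO (0.26 ± 0.04, adjusted p = 6.73e-05) and, by 0.16, in CP CML against WT. Ddi2, the protease that activates NRF1, rose by 0.55 ± 0.08 (adjusted p = 1.31e-05) in CP CML against WT and had -0.18 ± 0.08 (adjusted p = 0.0846) in BC CML against CP CML. Vcp, the segregase that feeds substrates to the proteasome, rose in all 4, by 0.22 to 0.27. Foxo3 fell in miR-142 KO against WT (-0.34 ± 0.09, adjusted p = 0.00342), CP CML against WT (-0.52 ± 0.09, adjusted p = 5.37e-05) and BC CML against miR-142 KO (-0.36 ± 0.09, adjusted p = 0.00253). Of 14 tested genes of ubiquitin supply and delivery, 4 rose in miR-142 KO against WT, 1 rose and 2 fell in BC CML against CP CML, 2 rose and 1 fell in CP CML against WT, and 2 rose and 1 fell in BC CML against miR-142 KO. The adaptor Nploc4, a partner of Vcp, had the largest of these rises in CP CML against WT (0.39 ± 0.05, adjusted p = 7.10e-06).

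The 12 genes of MHC class I antigen processing, which uses the peptides of the immunoproteasome, were called in both directions over the 4 comparisons. In CP CML against WT 3 rose and 4 fell, among them B2m, the light chain (-0.42 ± 0.08, adjusted p = 0.000304), and the peptide transporter subunit Tap2 (-0.41 ± 0.08, adjusted p = 0.000316), while the chaperone Calr rose (0.61 ± 0.10, adjusted p = 6.18e-05). In BC CML against miR-142 KO 3 rose and 6 fell, with -0.41 ± 0.07 (adjusted p = 9.90e-05) for the heavy chain H2-K1 and -0.38 ± 0.08 (adjusted p = 0.00113) for B2m. In miR-142 KO against WT 6 rose and 0 fell, with 0.90 ± 0.10 (adjusted p = 4.10e-07) for Calr, 0.50 ± 0.07 (adjusted p = 1.27e-05) for the chaperone Pdia3 and 0.41 ± 0.09 (adjusted p = 0.000621) for Tapbpl. In BC CML against CP CML 4 rose and 1, the transactivator Nlrc5, fell by 0.37 ± 0.12 (adjusted p = 0.0177).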

How the data were processed

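RNA of sorted LSK cells was sequenced as paired reads by the study, in 24 libraries that were each counted here as 1 mouse. Per the labels and the methods of the study, reads were trimmed (Trimmomatic, fastp), aligned to mm10 with STAR 2.6.0 and assigned to genes with HTSeq 0.11.1; the deposited values are raw counts per gene, and the annotation and strand setting are not given in the sources used here. Genes with low counts were removed with filterByExpr (13520 of 24091 kept), libraries were scaled by TMM, and all 24 libraries were fitted together with edgeR 4.0.16 (quasi-likelihood test, R 4.3.3), adjusted over all tested genes at 0.05. The standard error beside a log2 fold change was derived from this test, as the absolute log2 fold change over the square root of the F statistic. Ratios of subunit pairs were tested by exact permutation in SciPy 1.17.1, adjusted over 12 tests. The script was tested on simulated data.

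Alternatives were the likelihood ratio test, DESeq2 1.42.0, RLE and upper quartile scaling, no filter, at least 1 CPM in 6 libraries, sex as covariate, only the libraries compared, medians for ratios, and leaving out each mouse. The members and lists were chosen with earlier results of these data known. Levels were given for the immunoproteasome subunits, their constitutive partners, Psme1, Psme2 and, per comparison, up to 4 further members that rose and 4 that fell with the largest changes; in related lists, up to 3 genes per comparison by smallest p, others having been chosen after their values were seen. Total counts were 16267965 to 24687077 per library. The gene lengths used for levels per kilobase came with the deposited counts. The 3′UTRs and copies came from GENCODE M21, and promoters and miRNAs from RefSeq, all on GRCm38. One list of signalling genes and one promoter motif are not reported here.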

Additional observations from a re-analysis of the deposited data

Results flagged for a closer look

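In 22 proteasome genes whose levels were given by group, the highest and the lowest mouse of each group of 6 were compared with the rest by Dixon's test, in which chance marks about 1 group in 20. A value far from the rest was found in 14 of 88 groups, and in 33 of 196 groups over all tested members, of which 26 were values of miR-142 KO replicate 3. That mouse had the highest value of its group for the 20S genes Psma4 (127.5 CPM, next 106.7), Psmb3 (39.7 CPM, next 28.97), Psmb6 (117.0 CPM, next 91.2) and Psmb7 (131.2 CPM, next 103.6). It also had the highest values for the 19S genes Psmc1 (205.5 CPM, next 161.1), Psmd1 (391.8 CPM, next 300.6), Psmd3 (180.7 CPM, next 148.6), Psmd7 (207.5 CPM, next 169.5), Psmd8 (211.7 CPM, next 163.5) and Psmd14 (190.1 CPM, next 147.6), and for the chaperone Psmg3 (24.5 CPM, next 17.4). Its markers of other cells stood apart as well, and their part in these values was not tested.

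The other values far from the rest were those of Psmb3 in WT replicate 6 (29.6 CPM, next 25.2), Psma8 in CP CML replicate 2 (6.56 CPM, next 5.26) and Psma8 in BC CML replicate 6 (3.90 CPM, next 2.27), each the highest of its group.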

How the results depend on the processing

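Every member called in a comparison kept its direction in each alternative run. The call itself held in every alternative other than leaving out a mouse for 17 of 24 members in BC CML against CP CML, 15 of 28 in miR-142 KO against WT, 37 of 37 in CP CML against WT and 33 of 38 in BC CML against miR-142 KO. With only the 12 libraries compared, 17 members were called in miR-142 KO against WT. Leaving out each mouse in turn gave 13 to 27 members in BC CML against CP CML, 19 to 32 in miR-142 KO against WT, 36 to 38 in CP CML against WT, 33 to 43 in BC CML against miR-142 KO and 0 to 1 in the difference of the miR-142 effects. Calls were gained as well as lost in such fits. In miR-142 KO against WT, Psmb3 gained one in 5 fits, Psme2 in 4, and Psmb4, Psmc2 and Psmd9 in 3 each. In CP CML against WT, Psmb10 gained one in 3 fits.

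With group medians in place of means, the log2 difference of Psmb9 over Psmb6 in BC CML against miR-142 KO was -0.66 (exact permutation, adjusted p = 0.0909), and that of Psmb10 over Psmb7 in miR-142 KO against WT changed sign to 0.0174. Leaving out each mouse in turn, the ranges were -0.65 to -0.47 for Psmb9 over Psmb6 in BC CML against miR-142 KO and -0.0645 to 0.0375 for Psmb10 over Psmb7 in miR-142 KO against WT, positive (0.012, 0.0226 and 0.0375) without WT replicate 1, WT replicate 4 and miR-142 KO replicate 3. They were -0.24 to -0.10 for Psmb8 over Psmb5 in BC CML against CP CML, -0.39 to -0.24 for the same ratio in BC CML against miR-142 KO and -0.24 to -0.15 for Psmb10 over Psmb7 in CP CML against WT. The causes were not tested. No paired analysis was made, since the groups hold mice of different genotypes and the labels give no pairs. The replicate numbers were assigned here within each group, females first, and are not the numbers in the labels.

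Depth limits the least abundant members: Psma8 and Psme2b lay below 10 CPM.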
